A study of Mus musculus with 6 samples.

Results

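Card19, Bcl10, Malt1, Card9, Card10 and Traf6 encode the CARD scaffolds, the adaptor, the protease and the ubiquitin ligase of the route from BCL10 and MALT1 to NF-kB, together with 1 CARD protein, Card19, reported to bind BCL10. Every probe set annotated to these 6 genes alone was taken, which gave 14 of the 45101 probe sets on the array and 5 of the 6 genes. Card9 is not analysed here, because 0 probe sets carried its symbol alone in the annotation used. The genes were chosen by the difference of Card19 between the arms measured on these same arrays, so the differences of all members are given as a description, with no p-value.

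The 6 arrays measure messenger RNA of 32D, a murine myeloid progenitor line kept alive by interleukin-3. In 3 samples, titled 32D-miR-9/9*, the cells carried the construct C2-MiR-9 and expressed both strands of the miR-9 precursor, and in the other 3, titled 32D-EV, they carried the empty vector A1-EV. Both arms grew in 10% fetal calf serum with 10 ng/ml interleukin-3. The replicates are labelled independent, with nothing said on how cultures were separated or whether an arm descends from 1 infected population, so the p-values measure the spread between these samples, which may be technical.

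Caspase recruitment domains, or CARDs, are folds that stack onto each other. When a receptor-linked kinase phosphorylates a CARD scaffold (CARD9 below C-type lectins in myeloid cells, CARD10 mainly outside the blood), the scaffold seeds filaments of BCL10, which carry MALT1. MALT1 cleaves inhibitors of the pathway and binds TRAF6, whose ubiquitin chains activate the kinases TAK1 and IKK, and IKK in turn frees NF-kB. TRAF6 also serves the Toll-like and interleukin-1 receptors. CARD19, earlier called BinCARD, was described first as a BCL10 partner that restrains NF-kB and later as a protein of mitochondria.

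The sequences of both expressed strands are given because they define the treatment. The seed, bases 2 to 8 counted from the 5′ end, is in capitals, and the strands do not share it. Both sequences are from RefSeq, build GRCm38.p6, where the same mature pair is made from 3 genes, Mir9-1, Mir9-2 and Mir9-3.
mmu-miR-9-5p: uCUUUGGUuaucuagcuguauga
mmu-miR-9-3p: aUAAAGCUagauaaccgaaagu
Neither strand was measured here, and transcript sequences were not used here, so seed matches in the members were not searched.

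Promoter windows of 300 bases, from 250 before to 50 after the gene start, were matched by symbol for 5 of the 6 genes in the same RefSeq table. That of Card19 is shown because Card19 was the member that differed between the arms, and that of Bcl10 because it was the single member window with a match to the kappaB consensus, the letters bound by NF-kB. The Card19 window lies at chr13:49215977-49216276 on the minus strand, with matches to the GC box GGGCGG on either strand in capitals.
Card19: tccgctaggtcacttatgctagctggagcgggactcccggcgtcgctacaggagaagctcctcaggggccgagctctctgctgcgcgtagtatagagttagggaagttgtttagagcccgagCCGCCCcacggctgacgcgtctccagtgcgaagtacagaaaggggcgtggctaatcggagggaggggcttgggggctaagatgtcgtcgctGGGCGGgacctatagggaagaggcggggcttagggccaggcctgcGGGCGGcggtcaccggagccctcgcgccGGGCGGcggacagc
The Bcl10 window lies at chr3:145924012-145924311 on the plus strand, with the match to the kappaB consensus in capitals.
Bcl10: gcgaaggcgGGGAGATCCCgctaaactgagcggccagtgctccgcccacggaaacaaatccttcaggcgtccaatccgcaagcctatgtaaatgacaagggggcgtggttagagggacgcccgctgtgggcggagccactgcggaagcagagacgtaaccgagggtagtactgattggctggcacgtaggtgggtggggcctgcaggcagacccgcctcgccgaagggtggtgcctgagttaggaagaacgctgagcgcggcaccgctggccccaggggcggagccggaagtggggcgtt
The Card19 window held 4 GC boxes, that of Bcl10 3, Traf6 2, Card10 1 and Card9 0, and 35.7% of all 32851 windows in the table held at least 1. The kappaB consensus stood 1 time in the Bcl10 window and 0 times in those of Card19, Card9, Card10 and Traf6, against 8.46% of all windows with a match. These letters are a description of the windows and say nothing of the factors.

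Cells with miR-9/9* carried 42.0% of the Card19 message of cells with the empty vector by arm means. For the other measured members the arms overlapped in 12 of 13 probe sets. They did not overlap in 8.96% of all probe sets on the array, so this count is near that of the array as a whole. Card19 has 1 probe set, 1431359_a_at, of a type that reads several transcripts of 1 gene. Its MAS5 signal combines the probe pairs of a set and is reported on a linear scale. It read 333, 363 and 334 in empty vector arrays 1, 2 and 3. In miR-9/9* arrays 1, 2 and 3 it read 115, 153 and 164. The arms did not overlap, the brightest miR-9/9* array lying far below the dimmest empty vector array. Within the replicate numbers the miR-9/9* signal was 34.6%, 42.3% and 49.2% of that in the empty vector. The arm means were 343 ± 17.0 and 144 ± 25.9 (SD, n = 3 arrays each).

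On the scale used for all tests, log2(signal + 16), which understates changes of dim genes, Card19 differed by -1.18 (SE 0.144). With the replicate number as a block in the fit, that is, comparing the arms within numbers, the SE was 0.0952. Of 10208 genes tested, 6 had a lower value of this difference than Card19, and the 5th and 95th percentiles of all genes were -0.29 and 0.30. Card19 was 1 of 5 tested members called by limma at an adjusted p under 0.05, where 0.0588% of all genes were called, and 1 of 5 with the block, where 2.96% were called. Since this contrast chose the gene, nothing is read from those counts or from its rank. The refits that follow use the same arrays, so they describe the call and give it no support. Without the block the call was absent when empty vector array 1, 2 or 3 or miR-9/9* array 1 or 2 was left out, and after quantile normalization. It was also absent when dim probe sets were kept, when the variance trend was dropped, and when probe sets were tested in place of genes (0.00888% of them called). With the block it stood under all 13 alternatives, probe sets as units (1.95% called) among them. The difference itself ran from -1.29 to -0.97 over all alternatives.

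**Figure D1:**
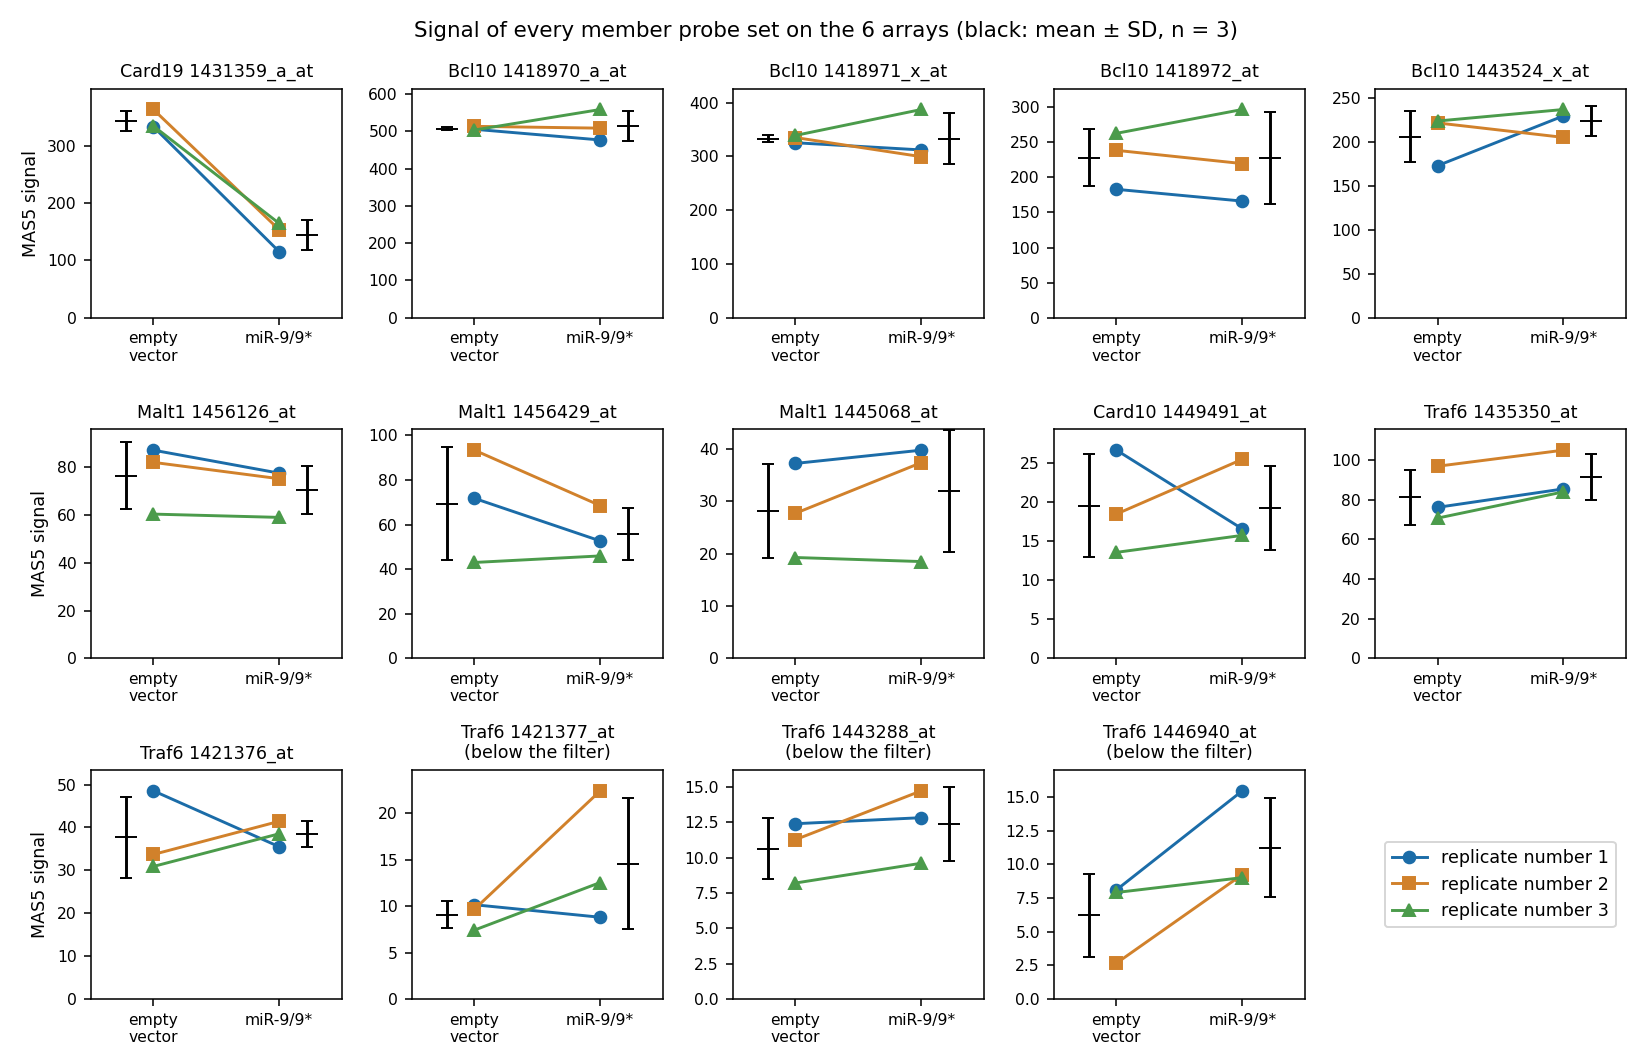
MAS5 signal (linear, from 0) of each of the 14 member probe sets in the empty vector and miR-9/9* arms, with lines joining arrays of the same replicate number and black bars for the mean ± SD of 3 arrays. In the first panel the Card19 signals of the arms lie apart, at 333 to 363 against 115 to 164, and in 12 of the other 13 panels the arms overlap.

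Card10, the scaffold that works mainly outside blood cells, was close to the dim end of what was tested. Its probe set, 1449491_at, read 26.7, 18.5 and 13.6 with the empty vector and 16.6, 25.5 and 15.8 with miR-9/9*, where the filter on dim probe sets stood at a signal of 12.9. Number 3 was the lowest array of both arms. The arms overlapped and 2 of 3 numbers were higher with miR-9/9* (difference -0.0066 on the log2 scale, SE 0.186, 95% interval from -0.43 to 0.42). Card14, the related scaffold of skin, read at most 3.63 on any array and was left out as dim.

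Bcl10, the filament-forming adaptor at the centre of the route, did not separate the arms in any of its 4 probe sets. Its brightest probe set, 1418970_a_at, read 505, 513 and 503 with the empty vector and 476, 508 and 558 with miR-9/9*. The empty vector arrays lay inside the range of the miR-9/9* arrays, which spread more widely (SD 41.2 against 5.19). The difference on the log2(signal + 16) scale was 0.017 (SE 0.104), with a 95% interval from -0.22 to 0.25, and 1 of 3 numbers was higher with miR-9/9*. The other probe sets gave differences of -0.0093 (1418971_x_at), -0.024 (1418972_at) and 0.12 (1443524_x_at), with arms overlapping in each. Sets with the ending _x_at can bind other transcripts too.

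Replicate numbers differed in Bcl10 too. Probe set 1418972_at read 183, 238 and 262 in empty vector arrays 1, 2 and 3 and 166, 219 and 296 in the miR-9/9* arrays, so that number 1 was lowest and number 3 highest in both arms. The probe sets 1418971_x_at and 1443524_x_at were also highest in number 3 in both arms. Probe set 1418970_a_at was highest in number 3 with miR-9/9* and lowest there with the empty vector. Over the 6 arrays 1418970_a_at, 1418971_x_at and 1418972_at correlated with each other at 0.75 to 0.82 (Pearson, log2 scale), and 1443524_x_at with them at 0.21 to 0.49. Those correlations describe 6 arrays that share a platform and have no p-value.

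Malt1 encodes the paracaspase that BCL10 carries. Its brightest probe set, 1456126_at, read 87.2, 82.1 and 60.4 with the empty vector and 77.6, 75.3 and 59.1 with miR-9/9*, a difference of -0.091 on the log2 scale (SE 0.167, 95% interval from -0.47 to 0.29). All 3 numbers were lower with miR-9/9*, each by less than the distance between number 3 and the others. The remaining probe sets pointed in opposite directions, with -0.22 for 1456429_at (69.4 ± 25.2 against 55.7 ± 11.6) and 0.11 for 1445068_at (28.1 ± 8.98 against 31.9 ± 11.6). The arms overlapped in all 3 probe sets. Number 3 was the lowest array of both arms in each of them, for example at 19.3 and 18.5 in 1445068_at, where the other 4 arrays read 27.7 to 39.8. The difference of the brightest probe set was 0.0093 without miR-9/9* array 3, -0.15 without array 1 of that arm, -0.0062 without empty vector array 1, -0.043 without array 2 and -0.22 without array 3 of that arm.

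Traf6, the ubiquitin ligase that MALT1 recruits, has 5 probe sets, and the mean of each was higher with miR-9/9*. The brightest, 1435350_at, read 76.1, 96.8 and 70.7 with the empty vector and 85.4, 105 and 83.9 with miR-9/9*. The arms overlapped, since number 2 was brighter than numbers 1 and 3 in both, but within each number miR-9/9* was higher, by 0.14, 0.10 and 0.20 on the log2 scale. The mean difference was 0.15 (SE 0.155, 95% interval from -0.21 to 0.50, and from -0.076 to 0.37 with the block). The second probe set above the filter, 1421376_at, stood at 37.7 ± 9.47 against 38.5 ± 2.96, a difference of 0.033 with number 1 lower and numbers 2 and 3 higher.

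The remaining 3 Traf6 probe sets lay below the filter and read at most 22.4 on any array. In 1446940_at the arms did not overlap, at 8.11, 2.67 and 7.92 against 15.5, 9.24 and 9.02. Across all Traf6 probe sets 13 of 15 differences within numbers were positive. These readings share their RNA, so they are not independent of each other. Leaving out empty vector array 2 brought the difference of the brightest probe set to 0.26, leaving out array 3 of that arm to 0.070, and leaving out miR-9/9* array 2 to 0.059. The mean of its probe sets above the filter gave 0.091.

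**Figure D2:**
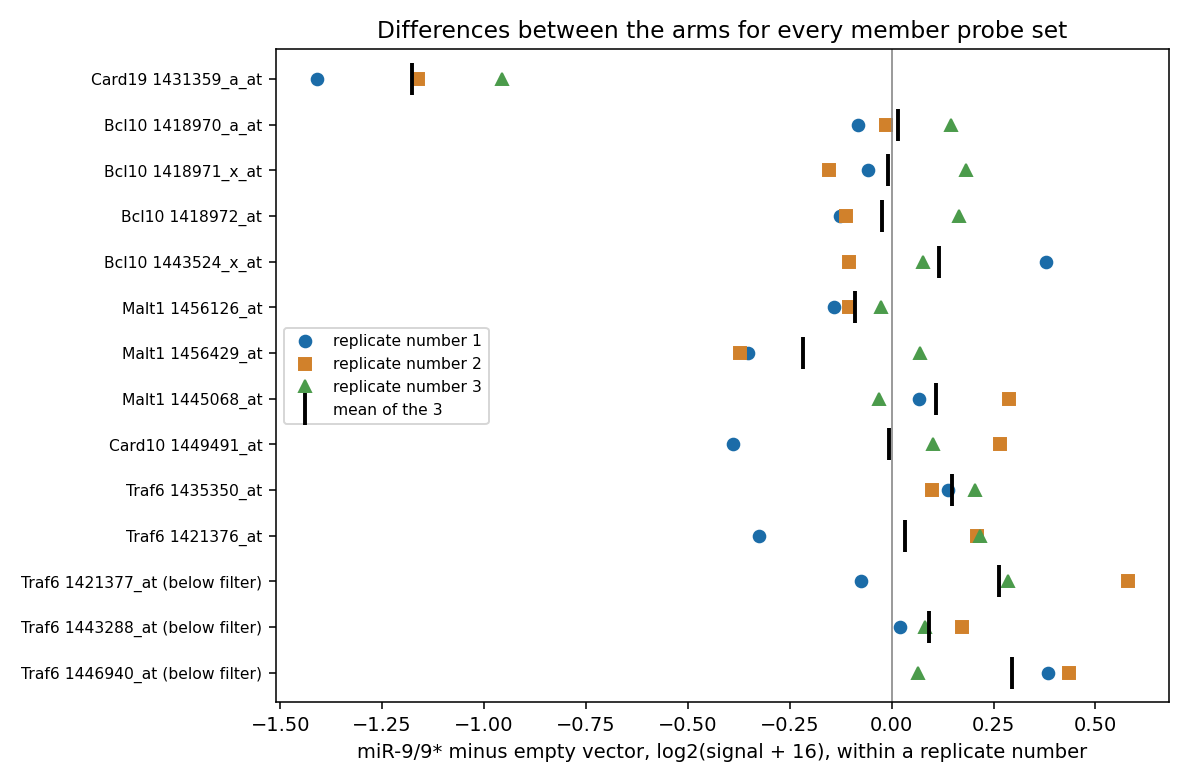
Differences in log2(signal + 16) between miR-9/9* and empty vector arrays of the same replicate number (coloured symbols) and their mean (black bars) for the 14 member probe sets. The Card19 differences lie between -1.41 and -0.96, and the means of the other probe sets between -0.22 and 0.29.

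Set side by side, the members other than Card19 gave 13 probe sets with means from -0.22 to 0.29, 8 of them above 0, and 23 of 39 differences within numbers above 0. Of the 10 above the filter, 5 had means above 0. The arms did not overlap in 2 of the 14 member probe sets, the one of Card19 (lower, beside 3.99% of all probe sets on the array) and the dim 1446940_at of Traf6 (higher, beside 4.96%). Pearson correlations of these 13 probe sets with Card19 over the 6 arrays ran from -0.80 for 1446940_at to 0.38 for 1456429_at of Malt1.

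The other genes of the route were counted on 7 lists, together with the scaffold Card14. Of these 113 genes 86 were tested, 19 lay below the filter and 8 had 0 probe sets of their own. Of those 86, limma called 0 without the block (5 had an unadjusted p under 0.05, beside 4.6% of all genes). With the block it called 4, or 4.65% of them beside 2.96% of all genes, 2 higher and 2 lower, where 1.51% of all genes were higher and 1.45% lower (22 had an unadjusted p under 0.05, beside 17% of all genes). The median difference of the 86 genes was 0.030 on the log2 scale, beside 0.0091 for all genes tested. The arms did not overlap in 6 of the 86 on the higher side and 7 on the lower. Of all probe sets on the array, dim ones included, these shares were 4.96% and 3.99%. In the blocked limma fit 0 of the list genes passed once the variance trend was dropped or dim probe sets were kept (21 and 20 had an unadjusted p under 0.05).

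Among 14 tested receptors and kinases upstream of CARD9 and BCL10, Clec4d and Prkca rose and Lat2 fell with the block. That fit called 2.96% of all genes. Clec4d is a C-type lectin of myeloid cells that signals through CARD9. It read 141, 95.03 and 139 with the empty vector and 295, 150.0 and 201 with miR-9/9*, so the arms did not overlap, on a probe set of a type that can also bind related transcripts. Its difference was 0.69 (limma block SE 0.108, block adjusted p = 0.0121, higher in 3 of 3 numbers, against adjusted p = 0.944 without the block). The block adjusted p ran from 0.00476 to 0.0855 over its alternatives, and the call was lost with the variance trend dropped (0.0855) or dim probe sets kept (0.0703).

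Prkca, a protein kinase C able to phosphorylate CARD scaffolds, read 298, 260.1 and 247 against 401, 365 and 322, again without overlap. Its difference was 0.41 (limma block adjusted p = 0.0148, against 0.758 without the block). Its other probe sets above the filter stood at 0.045 and 0.046. The call was lost when they were averaged (limma block adjusted p = 0.314), with the variance trend dropped (0.109), with dim probe sets kept (0.0562) and without replicate number 1 (0.0613).

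Lat2, an adaptor below immune receptors, read 401, 470 and 632 against 311, 272 and 530. The arms overlapped, while each number was lower with miR-9/9* (difference -0.45, limma block adjusted p = 0.0441, against 0.999 without the block). That p ran from 0.0152 to 0.183 over its 12 alternatives and passed the threshold under 6 of them. Without replicate number 2 it was 0.0861. The lectin Clec4e, which pairs with Clec4d, did not pass, with 114 ± 61.9 against 128 ± 83.1 (block adjusted p = 0.988), and Clec7a, the receptor called Dectin-1, lay below the filter.

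Tab3 was the gene called with the block among 15 tested members of the TRAF, ubiquitin and IKK list, beside 2.96% of all genes. Its protein reads ubiquitin chains for the kinase TAK1, the step after TRAF6. It read 149, 160.2 and 156 with the empty vector and 100.1, 112 and 124 with miR-9/9*, so the arms did not overlap. The difference was -0.42 (limma block adjusted p = 0.0436, lower in 3 of 3 numbers, against 0.733 without the block). The call was lost without replicate number 1 (limma block adjusted p = 0.187) or 2 (0.101), with the variance trend dropped (0.116) and with dim probe sets kept (0.124).

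Over all genes limma called 0.0588% without the block and 2.96% with it (4.6% and 17% had an unadjusted p under 0.05). Of 8 tested MALT1 substrates it called 0 in either fit (0 and 3 unadjusted), too few genes to tell from those shares. The brightest were Rc3h2, an RNA-binding protein related to roquin, at 335 ± 26.4 against 382 ± 33.9, and Rbck1, a subunit of the linear ubiquitin ligase, at 320 ± 47.1 against 329 ± 59.4. Of 11 genes on the Toll and interleukin-1 receptor route 0 were called (0 and 2 unadjusted), beside the same shares of all genes. There Irak1, a kinase that engages TRAF6, stood at 771 ± 51.1 against 616 ± 133 (limma block adjusted p = 0.209). Its arms narrowly did not overlap (lower), with 721 in the lowest empty vector array and 718 in the highest miR-9/9* array. The widest gap was in number 2, at 823 against 466, while numbers 1 and 3 differed by -0.11 and -0.096 on the log2 scale. The Irak1 probe set is of the _x_at type. The adaptor Myd88 stood at 453 ± 40.1 against 487 ± 23.7 (limma block adjusted p = 0.474).

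Of 11 other CARD proteins limma called 0, beside 0.0588% and 2.96% of all genes (0 and 4 unadjusted, beside 4.6% and 17%). Pycard, the inflammasome adaptor, was at 626 ± 73.9 against 544 ± 59.1, and Apaf1, the apoptosome scaffold, at 549.6 ± 43.2 against 571 ± 80.5. The mitochondrial MICOS and SAM complexes, linked to the shape of cristae, include reported partners of the CARD19 protein. Their list also holds Opa1, which is not a subunit of either. All 13 genes of the list were tested, and 0 were called (0 and 1 unadjusted), beside the same shares of all genes. The brightest were Samm50 (2088 ± 174 against 1891 ± 51.0) and Micos10 (1901 ± 334 against 1903 ± 205).

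Of 14 tested NF-kB response genes 0 were called, beside 0.0588% and 2.96% of all genes (0 and 3 unadjusted, beside 4.6% and 17%). These are too few genes to tell a count of 0 from those shares. The median difference of the list was 0.11. The brightest, Sod2, which encodes mitochondrial superoxide dismutase, stood at 1137 ± 171 against 1194 ± 54.6. Nfkbia, the inhibitor that NF-kB itself induces, stood at 429 ± 46.8 against 471 ± 38.2 (block adjusted p = 0.357, higher in 3 of 3 numbers).

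**Figure D3:**
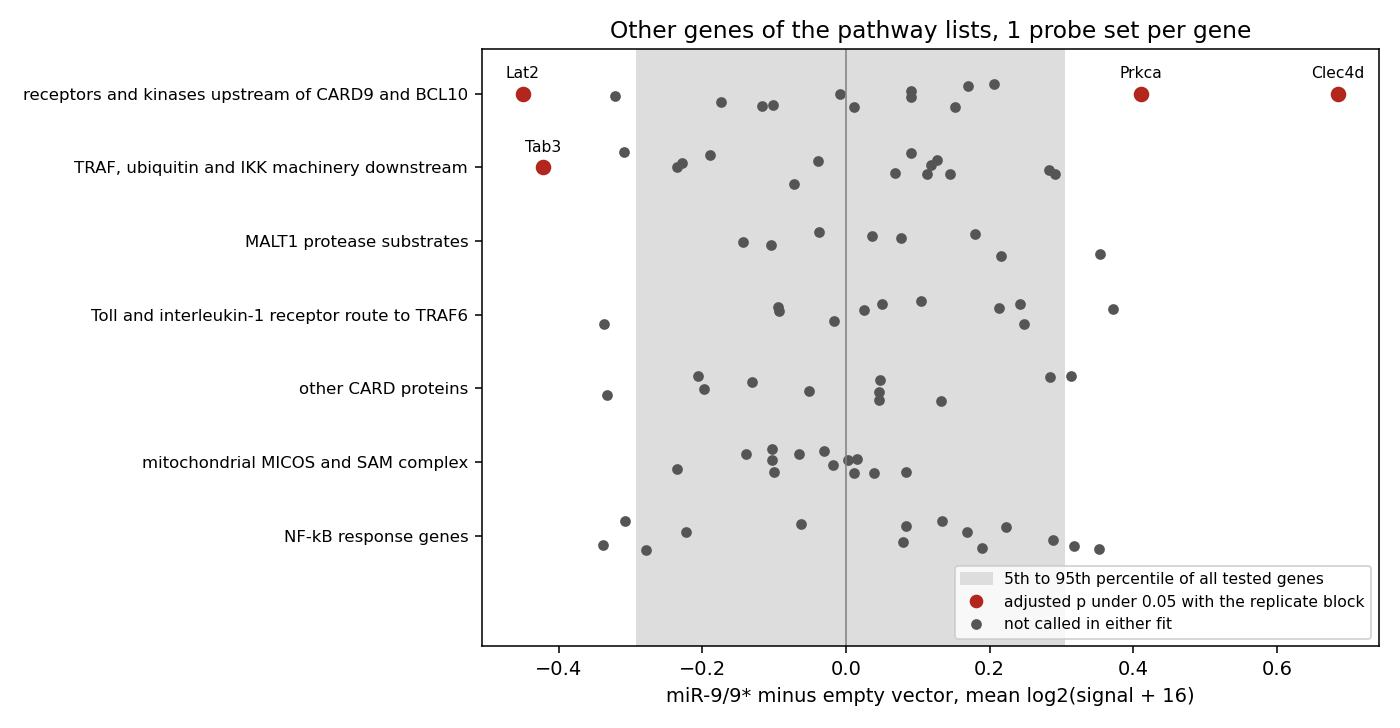
Mean differences in log2(signal + 16) between miR-9/9* and the empty vector for the 86 tested genes of the 7 lists, 1 point per gene at its brightest probe set, spread vertically for legibility. The grey band spans the 5th to 95th percentile of all 10208 genes, and the 4 red points, Clec4d, Prkca, Lat2 and Tab3, are those called with the replicate number as a block.

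Neither measured neighbour of Card19 on chromosome 13 was called in either fit, beside 0.0588% and 2.96% of all genes. Of the 3 annotated genes on each side, Ninj1 and Susd3 have probe sets. Ninj1 encodes the membrane protein ninjurin-1, which ruptures the plasma membrane of dying cells, and its gene runs on the opposite strand, towards Card19. Its brightest probe set, 1438928_x_at, read 1002, 1190.4 and 863 against 1089, 1082 and 893, a difference of 0.010 (SE 0.143, limma adjusted p = 0.999, and 0.968 with the block). The other Ninj1 probe sets stood at -0.27, -0.061 and 0.33, and in the last the arms did not overlap (42.1 ± 2.79 against 57.3 ± 10.0). Susd3 read 61.0, 69.7 and 65.9 against 84.1, 67.0 and 69.3 on its brightest probe set (0.13, limma block adjusted p = 0.656). Its second, dimmer probe set read 24.2, 23.8 and 5.69 against 30.4, 34.6 and 9.07, a difference of 0.25 (SE 0.322) with overlapping arms and each number higher with miR-9/9*.

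The genes whose pattern over the 6 arrays was most like that of Card19 were Synj2bp, Reep4, Bcat2, Wasf2 and Mvb12a, with Pearson correlations of 0.987 to 0.992 on the log2 scale. Among all genes tested, 31 correlated at more than 0.95. Synj2bp, a protein of the outer mitochondrial membrane, read 662, 680.1 and 713 against 395, 447 and 476, and Bcat2, the mitochondrial enzyme of branched-chain amino acid breakdown, 87.7, 112 and 105 against 37.4, 50.3 and 54.8. Reep4 shapes the endoplasmic reticulum, Wasf2 drives actin branching at the cell edge and Mvb12a sorts cargo into multivesicular bodies. Their levels were chosen for this likeness and are given without a test. In all 5 the arms did not overlap, as in 8.96% of all probe sets on the array. The miR-9/9* array of number 1 was the lowest, as in Card19. Both traits are what a choice by likeness to Card19 picks out. Most of each correlation comes from the gap between the arms. After each arm was set to its own mean, the correlations were 0.87 for Synj2bp, 0.82 for Reep4, 0.89 for Bcat2, 0.93 for Wasf2 and 0.75 for Mvb12a. The choice of the genes used these deviations too, so those values are not independent of it.

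**Figure D4:**
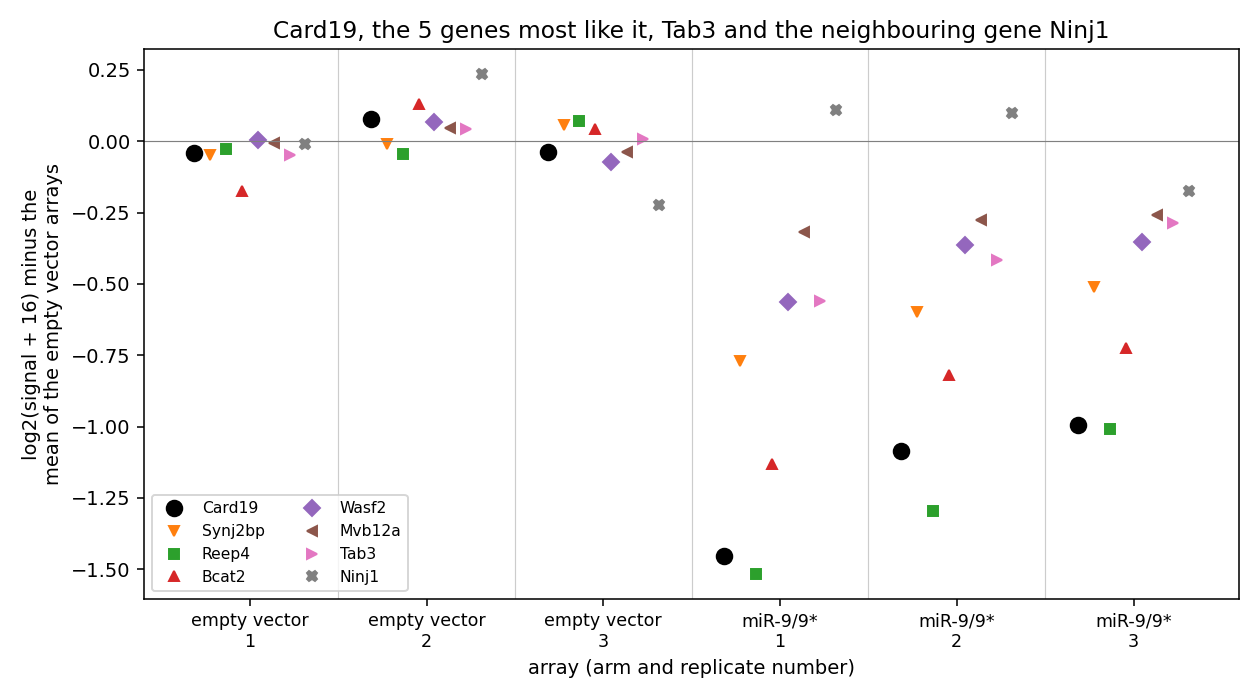
Log2(signal + 16) on each array minus the mean of the 3 empty vector arrays, for Card19, the 5 genes most correlated with it, Tab3 and the neighbouring gene Ninj1 (brightest probe set of each). Card19 and the like genes lie below 0 on the 3 miR-9/9* arrays, lowest in number 1, while the mean of Ninj1 differs by 0.010.

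Over the whole array, limma called 6 genes without the block and 302 with it. Median signals of the arrays ran from 12.0 to 15.2. Of 10 markers of myeloid progenitors 9 lay above the filter, Elane being the exception at no more than 15.1, and their summed signal ran from 5884 to 7972 with the empty vector and from 5070 to 9184 with miR-9/9*. Of 28 tested markers of other cell types, limma called 1 without the block and 10 with it, where 2.96% of all genes were called. Without the block the called gene was F13a1, placed here on the monocyte list (higher, limma adjusted p = 0.0435). No other marker of that list was called in either fit. With the block 3 of 7 erythroid, 4 of 6 megakaryocyte, 2 of 3 eosinophil and 1 of 7 monocyte markers were higher, and of 9 progenitor markers the interleukin-3 receptor subunit Csf2rb was lower (block adjusted p = 0.0362, 0.999 without). Of 4 mast cell and basophil markers limma called 0 in either fit (0 and 2 had an unadjusted p under 0.05), and their sums ran from 60.7 to 238 against 59.4 to 224. The summed erythroid markers ran from 2781 to 3966 against 3834 to 3991, the megakaryocyte ones from 1245 to 2281 against 1511 to 2877, the eosinophil ones from 255 to 1376 against 277 to 3617 and the monocyte ones from 1349 to 1552 against 1535 to 1857. Of 8 lymphoid markers with a probe set, Zap70 alone lay above the filter, and their sums ran from 80.0 to 173 against 95.8 to 184. The part of these marker values in the differences of Card19 and of the genes named above was not tested, and fewer cells with a message cannot be told apart from less message per cell.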

How the data were processed

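The deposited intensity values are MAS5 signals per probe set, per the submitters' processing notes, on a linear scale with a trimmed mean of 100 on every array. The MAS5 version and the genome build are not given here. Probe sets were named from a 2016 platform annotation, updated through Entrez IDs to RefSeq symbols (GRCm38.p6). Sets with several symbols named no gene.

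From these values log2(signal + 16) was computed, without further normalization. A gene was represented by its brightest probe set, and probe sets with a mean below the median of all (4.86, a signal of 12.9) were left out of the tests. Differences were tested with limma 3.58.1 under R 4.3.3 (eBayes with variance trend, two-sided, Benjamini-Hochberg over 10208 genes, threshold 0.05), checked on simulated data. The samples number 3 per arm, which limits the precision of every value. The main fit has no block. Same-numbered arrays deviated together from their arm means (correlations 0.491, 0.616 and 0.680, all over the limit of 0.1), so the numbers were taken as pairs and blocked values are given too. The labels give the numbers and do not say what they share.

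Named were all member probe sets, the 3 genes on each side of Card19, the 5 most correlated genes and, per list, the called genes or else the 2 brightest. Members and lists were chosen with earlier results of these data known.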

Additional observations from a re-analysis of the deposited data

How the results depend on the processing

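The difference of Card19 kept its sign and moved by less than its spread between replicate numbers under all 22 alternatives. The number of members called, 1 in the main fit, was 0 with dim probe sets kept, with quantile normalization, without a variance trend and with probe sets as units, and 0 to 1 when single arrays were left out. With the replicate block it was 1 under every alternative run. As these same arrays chose Card19, those counts are a description and not support for its difference. The count of all genes called, 6 in the main fit, was 0 without a filter (892 with an unadjusted p under 0.05 in limma), 3 without a variance trend and 26 with array weights. It ran from 0 to 7 when single arrays were left out, with 0 without empty vector array 1 (399 unadjusted). With the replicate block it was 302, with the block and no variance trend 38, with the block and no filter 74, and 162, 340 and 357 without replicate number 1, 2 and 3. Pathway list genes called went from 0 to 4 with the replicate block. The blocked 4 became 0 without a variance trend or a filter, 2 when probe sets were averaged, and 2 to 5 without each replicate number, lowest without number 1. Combinations of the block with pseudocounts, normalizations, a stricter filter, averaging, robust fits or probe sets as units were chosen after seeing the data. Traf6 sets below the filter, Card10 and Card14 are limited by signals near or under the dimmest values tested.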

Other observations

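Some NF-kB response genes differed more between replicate numbers than between the arms, and they are named here after their values were seen. Nfkbiz, which encodes an inducible nuclear partner of NF-kB, read 144, 185 and 1224 in empty vector arrays 1, 2 and 3 and 107, 120.4 and 1240 in the miR-9/9* arrays. Number 3 was thus several times brighter than the others in both arms, and the arm difference was -0.31 on the log2(signal + 16) scale (limma block adjusted p = 0.177). Gadd45b, a stress-induced gene with NF-kB sites, read 56.5, 55.2 and 160 against 47.9, 72.9 and 221, again highest in number 3 of both arms. Malt1 was lowest in number 3 of both arms in all 3 of its probe sets. What the numbers share is not given in the labels.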
